A study of Mus musculus with 6 samples.

Results

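The genes described here are the claudins, cadherins and connexins of mouse liver. They are the protein-coding genes of the table whose GRCm38 symbol begins with Cldn, Cdh, Gja, Gjb or Gjc followed by a digit. The rule found 71 genes of the 56305 in the table, namely 32 claudins, 23 cadherins and 16 connexins. Liver RNA came from male mice aged 5 weeks with free access to food, sampled at ZT6, with 3 livers labelled WT, 3 labelled Vps15LKO and 1 polyA-selected library for each. Vps15LKO mice were AlbCre+;Vps15 f/f, so Cre under the albumin promoter deleted Vps15, the regulatory subunit of class 3 PI3K, in the cells in which that promoter is active. The labels call the controls WT and give no alleles for them. Each genotype was sampled at 1 age and 1 time point, and the libraries came from whole liver tissue.

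Claudins are membrane proteins that build the strands of tight junctions, where they seal the space between neighbouring cells or leave it open to selected ions. In liver those strands close the bile canaliculus between hepatocytes and the lumen of the bile duct between cholangiocytes. Classical cadherins bind the same cadherin on the next cell and hold adherens junctions together through catenins, and hepatocytes make both E-cadherin and N-cadherin. Connexins form the channels of gap junctions, through which ions and small molecules pass from cell to cell, and the hepatocyte channel is made chiefly of connexin 32 and connexin 26.

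Values are normalized counts, the reads of a gene divided by 1 DESeq2 size factor per library. Each library held between 16137093 and 18110223 reads on genes, but size factors were 0.742 to 0.801 in WT and 1.23 to 1.41 in Vps15LKO livers, so the value of 1 read ranged from 1.25 to 1.35 in WT livers and from 0.707 to 0.810 in Vps15LKO livers. Bringing all libraries to an equal read total (total-read scaling) in place of using size factors moved the median log2 difference of all tested genes by 0.72, from -0.02 to 0.70, and members whose direction or call turned under it are named with that value. Pik3r4, which encodes Vps15, had 508, 573 and 459.7 normalized counts in WT livers and 341, 362 and 355 in Vps15LKO livers. Its log2 difference was -0.54 (SE 0.11, limma, Benjamini-Hochberg adjusted p = 0.00207) but 0.19, not called, under total-read scaling, and counts over the whole gene do not separate the deleted exons from the rest. Hepatocyte markers, 10 genes, summed to 2835438 to 3317144 normalized counts in WT livers against 789622 to 1203306 in Vps15LKO livers, and 9 of the 10 fell, while Alb missed the threshold at -1.48 (limma, adjusted p = 0.366). Markers of cholangiocytes rose, 10 of the 10 tested, as did 12 of 12 of stellate cells and fibroblasts and 11 of 12 of macrophages. Of all tested genes, 33.5% were called higher and 33.0% lower. In whole tissue, fewer cells of a type and less RNA per cell cannot be told apart.

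Of the 71 genes, 24 were tested, 9 claudins, 8 cadherins and 7 connexins, because they reached 20 normalized counts in 3 or more of the 6 livers. The other 47 stayed below that filter, 13 of them at 0 in every liver. Calls required an adjusted p below 0.05 and a fold of 1.2 or more, up or down, on the scale log2(normalized count + 1), which understates the change of low genes. Of the 24, 20 were called (83.3%, against 66.5% of the 15430 genes tested), 15 higher in Vps15LKO liver (62.5%, against 33.5%) and 5 lower (20.8%, against 33.0%). The values of the genotypes did not overlap for 20 of the 24 (83.3%, against 73.2% of all tested genes). Under total-read scaling 19 of the 24 were higher and 3 lower, where 10299 of all tested genes were higher (66.7%) and 1712 lower (11.1%). Of the 15 that rose, 7 were under 20 in every WT liver and passed the filter through Vps15LKO livers alone, so they had to differ, and Cdh3 and Cdh4 were under 20 in at least 1 WT liver. Among the 15 genes at or over 20 in every liver, 6 rose and 5 fell, where 27.9% of all genes that pass this stricter filter rose and 36.2% fell. The median log2 difference of those 15 was -0.0026, beside -0.0995 for all genes that pass the stricter filter. Over all 24, with the genes that had to differ included, it was 0.86, beside -0.02 for all tested genes.

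**Figure D1:**
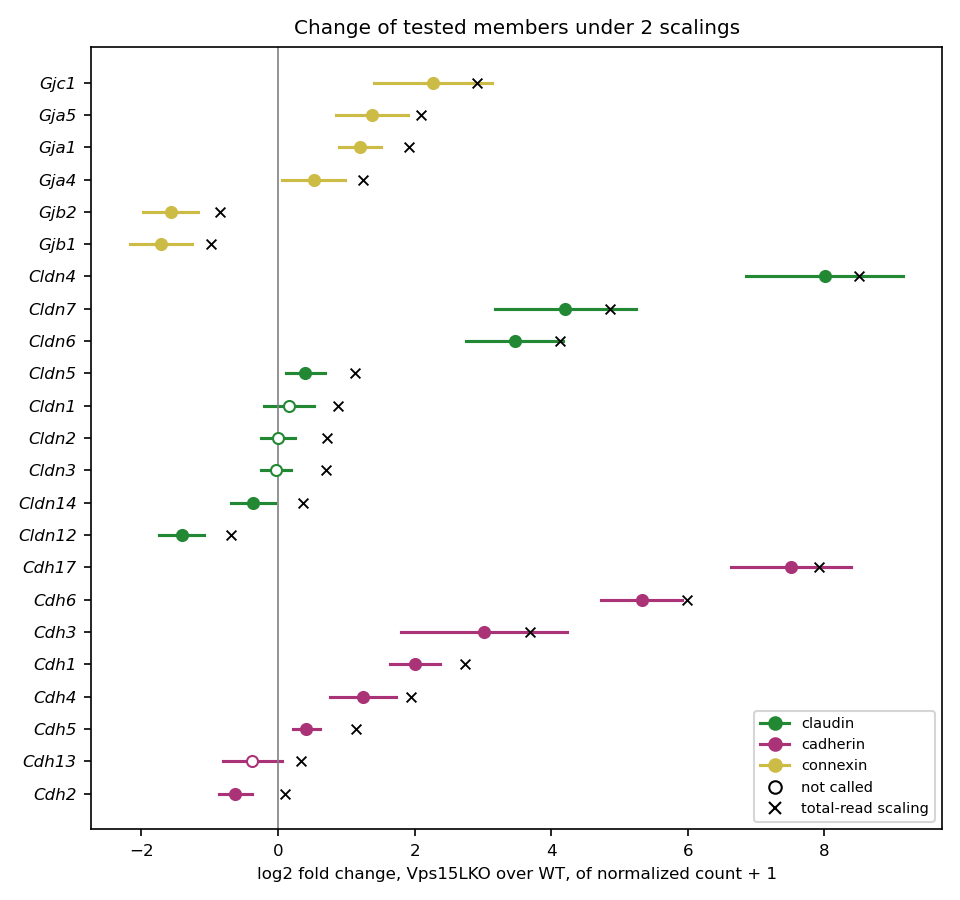
Log2 differences, Vps15LKO minus WT, of 23 of the 24 tested claudins, cadherins and connexins on the log2(normalized count + 1) scale, with 95% intervals from limma as lines, open points for genes that were not called, and crosses for the value under total-read scaling. Those called higher reach from 0.40 for Cldn5 to 8.01 for Cldn4, and the lowest value is -1.71 for Gjb1. Total-read scaling turned Cldn14 to 0.36 and Cdh2 to 0.10.

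Promoter windows are shown for 5 genes that carry the contrasts below. They are the claudin that rose most, its neighbour on chromosome 5, which was not called, a cadherin that came up from a few reads, and both hepatocyte connexins. Each is the 250 bases before a RefSeq transcription start of GRCm38.p6, read 5′ to 3′ on the gene's strand. Cldn4 lies on the minus strand (chr5:134946935-134947184), Cldn3 on the plus strand (chr5:134985964-134986213), Cdh6 on the minus strand (chr15:13173676-13173925), Gjb2 on the minus strand (chr14:57104703-57104952) and Gjb1 on the plus strand (chrX:101376985-101377234). RefSeq lists 4 starts for Gjb1, and the window shown is the one that holds the last motif named here. Capitals mark CAGGTG or CACCTG, the E-box read by Snail and Zeb repressors, in Cldn4 and Gjb2, and in Gjb1 GCCATGTCA, a match to the antioxidant response core GCNNNGTCA.
Cldn4: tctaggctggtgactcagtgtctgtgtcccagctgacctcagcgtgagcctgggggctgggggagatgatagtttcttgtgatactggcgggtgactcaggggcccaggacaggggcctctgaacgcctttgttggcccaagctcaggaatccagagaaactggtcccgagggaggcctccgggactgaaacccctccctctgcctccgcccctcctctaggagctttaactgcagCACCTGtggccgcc
Cldn3: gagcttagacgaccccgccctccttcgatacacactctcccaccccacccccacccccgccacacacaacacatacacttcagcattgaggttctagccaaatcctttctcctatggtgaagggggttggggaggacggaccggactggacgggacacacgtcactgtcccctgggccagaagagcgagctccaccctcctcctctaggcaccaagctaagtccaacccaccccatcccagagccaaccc
Cdh6: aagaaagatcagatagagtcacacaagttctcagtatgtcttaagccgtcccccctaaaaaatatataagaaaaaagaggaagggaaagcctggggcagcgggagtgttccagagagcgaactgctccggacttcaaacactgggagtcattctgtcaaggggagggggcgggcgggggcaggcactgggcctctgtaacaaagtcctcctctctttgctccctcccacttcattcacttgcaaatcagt
Gjb2: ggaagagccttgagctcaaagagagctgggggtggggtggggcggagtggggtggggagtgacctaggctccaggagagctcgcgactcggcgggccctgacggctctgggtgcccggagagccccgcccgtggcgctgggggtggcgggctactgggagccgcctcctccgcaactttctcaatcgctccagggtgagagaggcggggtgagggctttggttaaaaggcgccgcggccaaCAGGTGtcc
Gjb1: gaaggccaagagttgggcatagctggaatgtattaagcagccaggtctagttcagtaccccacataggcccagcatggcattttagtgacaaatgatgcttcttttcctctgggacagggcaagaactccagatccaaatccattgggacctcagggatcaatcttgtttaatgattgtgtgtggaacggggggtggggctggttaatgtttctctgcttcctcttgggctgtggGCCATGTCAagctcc

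Motifs were searched on both strands of all 32851 windows of this length, and 15 of the 24 tested genes had windows, 23 in all. CAGGTG or CACCTG was found in 6 of the 23 (26.1%, against 17.2% of all windows), in 1 window each of Cldn4, Cldn6, Cldn7, Cldn14, Gjb1 and Gjb2, a set that holds genes of both directions. It began 14 bases before the start of Cldn4 and 9 before that of Gjb2. TGACNNNGC or GCNNNGTCA was in 1 of the 23, the Gjb1 window shown (against 10.2% of all windows). The E-box CACGTG, which the clock factor Bmal1 reads, was in none of the 23, with 6.02% of all windows holding it. A match is a string of letters in this window and was not tested as a binding site.

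Both major connexins of hepatocytes fell. Gjb1 (connexin 32, chrX:101376378-101385629) had 22683, 22169 and 22521 normalized counts in WT and 7042, 8930.0 and 5126 in Vps15LKO livers. Every Vps15LKO liver lay below every WT liver, with Vps15LKO replicate 3 lowest. The log2 difference was -1.71 (SE 0.20, limma, adjusted p = 0.000102), a fall of 3.27 times, and it stayed between -1.90 and -1.50 when single livers were left out. It was -0.98 under total-read scaling and -0.63 under quantile normalization (adjusted p = 0.00952), still called lower. Gjb2 (connexin 26, chr14:57098600-57104702) had 10307, 10512 and 9939 in WT and 3496, 4407 and 2656 in Vps15LKO livers. Its order over the livers was that of Gjb1 within Vps15LKO, with replicate 2 highest and replicate 3 lowest. The log2 difference of Gjb2 was -1.57 (SE 0.17, limma, adjusted p = 7.89e-05), -0.85 under total-read scaling and -0.83 under quantile normalization.

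The other connexins that were tested all rose. Gja1 (connexin 43, the connexin of many non-parenchymal cells) had 86.2, 82.4 and 84.9 normalized counts in WT and 170.3, 208 and 211 in Vps15LKO livers, a log2 difference of 1.201 (SE 0.14, limma, adjusted p = 8.42e-05). Gja5 (connexin 40, found in arterial endothelium) had 45.1, 51.2 and 52.6 in WT and 108, 109 and 186 in Vps15LKO livers, a log2 difference of 1.37 (SE 0.23, adjusted p = 0.000751). Its exons share 165 bases, 2.87% of their length, with Gpr89 on the other strand. Replicate 3 stood highest among the Vps15LKO livers for both genes.

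Gja4 (connexin 37, also endothelial) had 137.9, 93.7 and 131 normalized counts in WT and 138.2, 173 and 211 in Vps15LKO livers. Its lowest Vps15LKO liver barely exceeded its highest WT liver, and its log2 difference of 0.52 (SE 0.20, limma, adjusted p = 0.0474) lost its call without WT replicate 2 (0.35), WT replicate 3 (0.59), Vps15LKO replicate 2 (0.52) or Vps15LKO replicate 3 (0.38). It also lost it under upper-quartile scaling (0.43) and quantile normalization (0.19). Gjc1 (connexin 45) had 2.65, 6.25 and 5.39 in WT and 22.9, 24.3 and 30.4 in Vps15LKO livers, with a log2 difference of 2.27, 1.61 under quantile normalization and 1.28 at a pseudocount of 10. It was under 20 in every WT liver.

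Gjb1 and Gjb2 held nearly all connexin counts in both genotypes. All 16 connexins together gave 32771 to 33296 normalized counts in WT livers against 8512 to 13913 in Vps15LKO livers. Per kb of exon, the scale on which genes can be compared, Gjb1 stood at 13156 in WT and 4119.9 in Vps15LKO livers and Gjb2 at 4261 and 1463. Gjb1 made up 75.1% of connexin counts per kb in WT and 71.1% in Vps15LKO livers, Gjb2 24.3% and 25.4%, and Gja4 0.41% and 1.91%. The log2 ratio of Gjb2 to Gjb1 within a liver, in which the scaling of libraries cancels apart from the pseudocount of 1, was -1.13 ± 0.05 (SD, n = 3) in WT and -0.99 ± 0.04 (SD, n = 3) in Vps15LKO livers, a difference of 0.14 without overlap (exact permutation test, two-sided, p = 0.1). That p is the smallest that 3 livers against 3 allow, and it is 0.16 after adjustment over the 8 ratios compared. The log2 ratio of Gja1 to Gjb1 went from -8.04 ± 0.02 to -5.12 ± 0.46 (SD, n = 3), a difference of 2.91 with the same p.

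**Figure D2:**
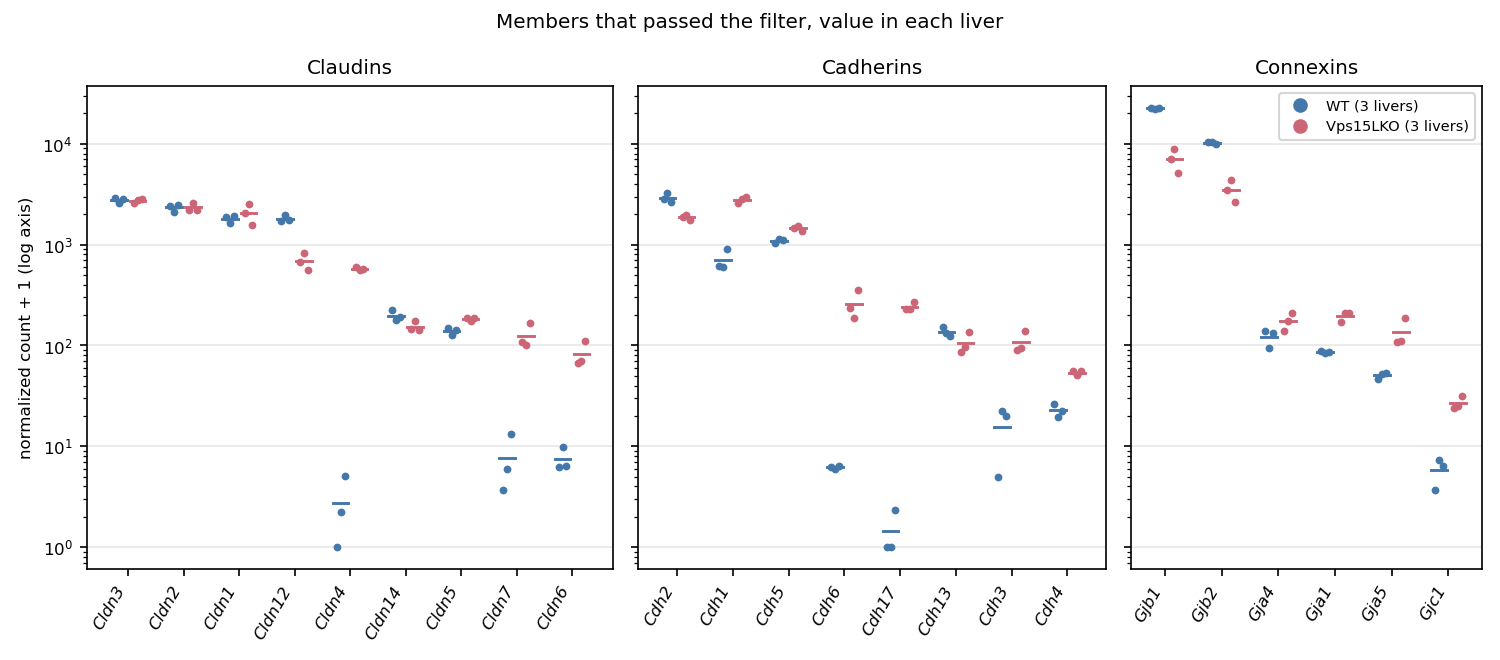
Normalized counts in each liver, plus 1 and on a log axis, for 23 of the 24 tested claudins, cadherins and connexins, with 1 point per liver and a bar at the mean of each genotype. Gjb1 and Gjb2 are lower in every Vps15LKO liver, Cldn1, Cldn2 and Cldn3 overlap between genotypes, and Cldn4 and Cdh17 go from at most 4.04 normalized counts in WT to at least 227 in Vps15LKO livers.

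The claudins with the highest levels per kb in WT liver, Cldn3 and Cldn2, missed the threshold, as did Cldn1. Cldn3 (chr5:134986214-134987472), a sealing claudin, had 2914, 2568 and 2862 normalized counts in WT and 2577, 2783 and 2833 in Vps15LKO livers. The log2 difference was -0.03 (limma 95% interval -0.24 to 0.19, adjusted p = 0.827). Cldn2 (chrX:139800828-139811386), which forms a pore for cations and water, had 2401, 2115 and 2498 in WT and 2182, 2599 and 2225 in Vps15LKO livers, a log2 difference of -0.003 (-0.25 to 0.25, adjusted p = 0.985). The genotypes overlapped for both genes. Cldn1 (chr16:26356642-26371841), needed for the seal of bile canaliculi and ducts, had 1868, 1636 and 1903 in WT and 2045, 2506 and 1579 in Vps15LKO livers, a log2 difference of 0.16 (-0.21 to 0.53, adjusted p = 0.409). These genes depend on the scaling, for total-read scaling called all of them higher (0.70 for Cldn3, 0.72 for Cldn2 and 0.88 for Cldn1), and so did quantile normalization (0.50, 0.47 and 0.58). Of the exon bases of Cldn3, 40 (3.18%) are shared with Wbscr25 on the other strand.

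Cldn12 fell. It had 1724, 1967 and 1752 normalized counts in WT and 672, 835 and 562 in Vps15LKO livers. Cldn12 (chr5:5489537-5514958) is a claudin without the usual PDZ-binding end, and its level in every Vps15LKO liver was under that in every WT liver. Its log2 difference was -1.41 (SE 0.14, limma, adjusted p = 4.84e-05), and -0.69 under total-read scaling, where it was still called lower. Cldn14 (chr16:93919031-94008837), a sealing claudin, had 224, 176 and 191 in WT and 144, 173 and 142 in Vps15LKO livers. Although these values did not overlap, the log2 difference of -0.36 (SE 0.14, adjusted p = 0.0473) turned to 0.36 and was called higher under total-read scaling. Cldn14 also lost its call with DESeq2 (adjusted p = 0.0666), with the replicate number as a block (adjusted p = 0.0776), with TMM scaling (-0.32) and without WT replicate 1 (-0.27), WT replicate 3 (-0.38), Vps15LKO replicate 1 (-0.32) or Vps15LKO replicate 3 (-0.31).

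Cldn4 rose from nearly no reads. Cldn4 (chr5:134945119-134946934), a claudin of duct and other lining epithelia, lies on chromosome 5 near Cldn3, on the other strand. It had 0, 1.25 and 4.04 normalized counts in WT, from 4 reads in all, and 606, 554 and 574 in Vps15LKO livers, from 2288 reads. Against those 4 reads the ratio of normalized reads was 332, with an exact 95% counting interval of 129 to 1219, which covers counting error only. The limma log2 difference was 8.01 (SE 0.50, adjusted p = 4.4e-06) at a pseudocount of 1, and its size depends on that pseudocount. The log2 ratio of Cldn4 to Cldn1 within a liver moved from -9.65 ± 1.16 to -1.80 ± 0.36 (SD, n = 3), without overlap (exact permutation test, two-sided, p = 0.1, the smallest possible, and 0.16 after adjustment). Its WT side rests on those 4 reads and the pseudocount. Cldn4 passed the filter through Vps15LKO livers alone, so the lack of overlap was largely set in advance and adds no support.

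Cldn5, Cldn6 and Cldn7 rose too, and with Cldn4 they made 4 of the 9 tested claudins higher (44.4%, against 33.5% of all tested genes), with 2 lower (22.2%, against 33.0%). Of these 4, Cldn4, Cldn6 and Cldn7 passed the filter through Vps15LKO livers alone, so they had to differ. Of the claudins with 20 or more in every liver, 1 rose (Cldn5), 2 fell (Cldn12 and Cldn14) and Cldn1, Cldn2 and Cldn3 were not called. Over all genes that pass that filter, 27.9% rose and 36.2% fell. Under total-read scaling 8 claudins were higher (88.9%, against 66.7%) and 1 lower (11.1%, the same share as among all tested genes). Cldn7, which also lies along basolateral membranes, had 2.65, 4.996 and 12.1 normalized counts in WT and 108, 99.7 and 166 in Vps15LKO livers, a log2 difference of 4.21 (SE 0.45, limma, adjusted p = 6.58e-05). Cldn6, an embryonic claudin, had 5.30, 8.74 and 5.39 in WT and 65.7, 69.7 and 111 in Vps15LKO livers, a log2 difference of 3.46 (SE 0.31, adjusted p = 2.49e-05). Both were under 20 in every WT liver and highest in Vps15LKO replicate 3. At a pseudocount of 10 the differences of Cldn7 and Cldn6 were 3.03 and 2.46, and quantile normalization put Cldn6 at 2.87. Cldn5, the claudin of endothelium, had 148.5, 125 and 142 in WT and 188, 173 and 187 in Vps15LKO livers, a log2 difference of 0.40 (SE 0.12, adjusted p = 0.0181). Its call was lost with upper-quartile scaling (0.31), with quantile normalization (0.10) and without WT replicate 2 (0.33), Vps15LKO replicate 1 (0.38) or Vps15LKO replicate 3 (0.38). Claudin counts in sum overlapped between genotypes, at 8635 to 9398 in WT and 8431 to 9845 in Vps15LKO livers. Per kb, Cldn3 held 56.2% of them in WT and 52.8% in Vps15LKO livers, Cldn12 went from 10.97% to 3.95% and Cldn4 from 0.02% to 7.76%.

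Of the 8 cadherins tested, 6 rose (75.0%, against 33.5% of all tested genes) and 1 fell (12.5%, against 33.0%), with 2 lower under upper-quartile scaling (where 37.8% of all tested genes were lower) and 0 under total-read scaling (against 11.1%). Of those 6, Cdh6 and Cdh17 passed the filter through Vps15LKO livers alone, and of the 4 cadherins with 20 or more in every liver 2 rose and 1 fell, against 27.9% and 36.2% of all genes that pass that filter. E-cadherin rose, and N-cadherin, the other hepatocyte cadherin, fell with size factors but not with total-read scaling. Cdh1 (E-cadherin, chr8:106603351-106670246) had 618, 593 and 906 normalized counts in WT and 2583, 2848 and 2968 in Vps15LKO livers. All Vps15LKO livers were above all WT livers, and WT replicate 3 stood above the other two. The log2 difference was 2.01 (SE 0.16, limma, adjusted p = 1.34e-05), a rise of 4.03 times. Cdh2 (N-cadherin, chr18:16588877-16809246) had 2824, 3246 and 2630.0 in WT and 1879, 1979.7 and 1767 in Vps15LKO livers. Its log2 difference of -0.62 (SE 0.11, adjusted p = 0.000843) was not called under quantile normalization (-0.15, adjusted p = 0.173), and under total-read scaling it was 0.10 and not called. The log2 ratio of Cdh2 to Cdh1 within a liver, taken with the same pseudocount, went from 2.06 ± 0.47 (SD, n = 3) in WT to -0.58 ± 0.15 (SD, n = 3) in Vps15LKO livers, a difference of -2.64 without overlap (exact permutation test, two-sided, p = 0.1, the smallest possible, and 0.16 after adjustment).

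Cdh17 and Cdh6 rose from a handful of reads. Cdh17 (liver-intestine cadherin, chr4:11758147-11817895) had 0, 0 and 1.35 normalized counts in WT, from 1 read, and 229, 227 and 269 in Vps15LKO livers, from 961 reads. The ratio of normalized reads was 558, with an exact 95% counting interval of 99.9 to 22050.3, and the limma log2 difference was 7.51 (SE 0.39, adjusted p = 1.61e-06), a size that depends on the pseudocount. The width of that interval comes from the single WT read. Cdh6 (chr15:13028701-13173675), known from kidney epithelium, had 5.30, 4.996 and 5.39 in WT and 233, 188 and 354 in Vps15LKO livers, a log2 difference of 5.33 (SE 0.26, adjusted p = 1.29e-06), and 4.09 at a pseudocount of 10. Its Vps15LKO livers spread from 188 to 354, with replicate 3 highest.

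Cdh3, Cdh4 and Cdh5 rose by less. Cdh3 (P-cadherin), which lies near Cdh1 on chromosome 8, had 3.98, 21.2 and 18.9 normalized counts in WT and 88.6, 93.2 and 137 in Vps15LKO livers, a log2 difference of 3.02 (SE 0.53, limma, adjusted p = 0.00104). Without WT replicate 1, its lowest liver, the difference was 2.32, and at a pseudocount of 10 it was 2.30, called in both cases. Cdh4 (R-cadherin) had 25.2, 18.7 and 21.6 in WT and 54.2, 49.4 and 55.2 in Vps15LKO livers, a log2 difference of 1.25 (SE 0.21, adjusted p = 0.000806), and 0.57 under quantile normalization (adjusted p = 0.0363). Cdh5 (VE-cadherin, the cadherin of endothelium) had 1034, 1138 and 1108 in WT and 1473, 1526 and 1374 in Vps15LKO livers, a log2 difference of 0.41 (SE 0.09, adjusted p = 0.00284). The genotypes did not overlap for any of these genes. Cdh13 (T-cadherin, held in the membrane by a lipid anchor) had 149.8, 132 and 124 in WT and 85.5, 96.4 and 135 in Vps15LKO livers, a log2 difference of -0.38 (limma 95% interval -0.81 to 0.05, adjusted p = 0.106). It was called lower without Vps15LKO replicate 3 (-0.57), with upper-quartile scaling (-0.47) and with quantile normalization (-0.76), and total-read scaling put it at 0.34.

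All 23 cadherins together gave 4677 to 5181 normalized counts in WT livers against 6661 to 7103 in Vps15LKO livers. Per kb of exon, Cdh2 held 45.1% of the family in WT and 17.6% in Vps15LKO livers, whereas Cdh1 went from 19.3% to 46.3%. Cdh5 went from 32.6% to 26.3% and Cdh17 from 0.01% to 4.09%. E-cadherin was the third cadherin per kb in each WT liver, after N-cadherin and VE-cadherin, and the first in each Vps15LKO liver.

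**Figure D3:**
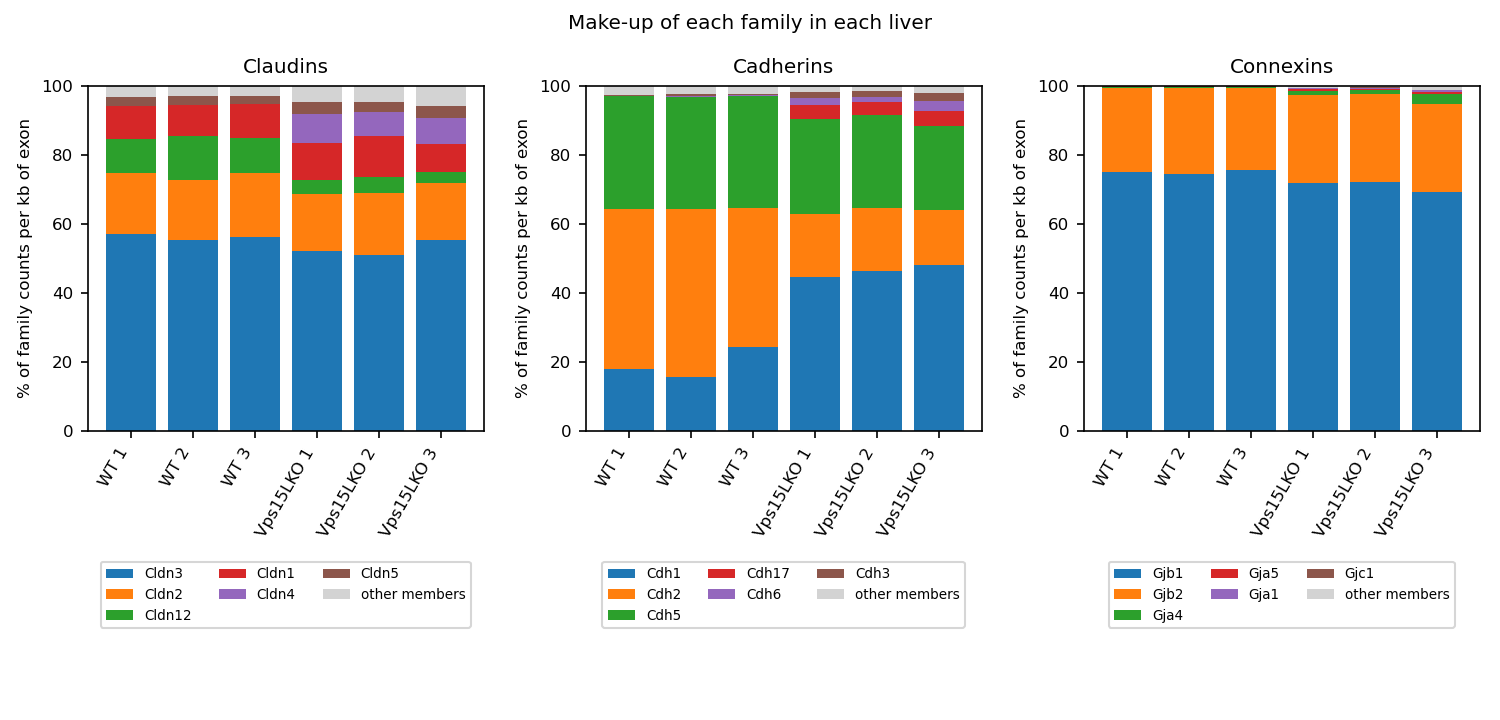
Share of each family's normalized counts per kb of exon held by single genes, in percent, in each liver of either genotype, the remaining members being summed as other members. Cdh1 takes 46.3% of the cadherin counts in Vps15LKO livers against 19.3% in WT, Cldn4 takes 7.76% of the claudin counts against 0.02%, and Gjb1 and Gjb2 hold nearly all connexin counts in both genotypes.

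The members described above as endothelial, Cldn5, Cdh5, Gja4 and Gja5, were called higher. Cldn5 and Gja4 lost that call under upper-quartile scaling and quantile normalization. Cdh13, not counted among them, stood at -0.38 and was not called. The 12 endothelial markers gave 4 higher (33.3%, against 33.5% of all tested genes) and 6 lower of 12 tested (against 33.0%). Those markers summed to 11280 to 12569.7 normalized counts in WT livers against 9946 to 11812 in Vps15LKO livers, ranges that overlap. Under total-read scaling 8 of the 12 rose (66.7%, the same share as among all tested genes) and 0 fell (against 11.1%). Markers of mesothelium summed to 202 to 242 in WT and 152 to 231 in Vps15LKO livers. Those of exocrine pancreas summed to 299 to 447 in WT and 100.4 to 119.9 in Vps15LKO livers, with Cpa1 and Pnlip at 0 in every liver. Intestine markers summed to 608 to 728 and 345 to 451, with Sis at 0 in every liver. Lymphocyte markers summed to 139 to 167 and 335 to 393.

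Within the Vps15LKO group many members shared the order of the livers. Replicate 3 was the lowest of the 3 for 5 of the 5 genes that fell and the highest for 12 of the 15 that rose, and replicate 2 was the highest for 5 of the 5 that fell. This order was not counted over all called genes, so it cannot be called particular to the members. The sum of hepatocyte markers was lowest in replicate 3 (789622) and highest in replicate 2 (1203306), with 977959.8 in replicate 1. The 12 cholangiocyte markers summed to 1576 to 1682 in WT, and to 18830.1, 14983 and 27547 in Vps15LKO replicates 1 to 3. None of those 12 was at 0 in every liver. Stellate cell and fibroblast markers summed to 7566 to 8105 in WT and 32493 to 38809.6 in Vps15LKO livers, and macrophage markers to 10523 to 12227 and 37106 to 41001. The part of these cell types in the changes of junction genes was not tested.

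Below the filter, 34 members had at least 1 read, and the highest value was 23.7 normalized counts. Cldn23 had 0 reads in WT and 9.93, 14.6 and 13.4 normalized counts in Vps15LKO livers, at least 9.67-fold higher against the limit of 3 reads over the WT group. Gjc3 (connexin 29) went the other way, with 14.6, 23.7 and 21.6 in WT and 3.82, 5.67 and 4.24 in Vps15LKO livers. Cldn15, a cation-pore claudin of gut, had 13.3, 12.5 and 16.2 in WT and 16.8, 21.1 and 16.3 in Vps15LKO livers. With no filter on low values, limma called Cldn11 and Cldn23 higher and Cldn20 and Gjc3 lower, among others, but such calls rest on few reads.

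The genes of proteins that work with these families moved in both directions, given here as differences on the log2(normalized count + 1) scale. Of 29 tight junction partners, 28 were tested, and 11 rose (39.3%, against 33.5% of all tested genes), 5 fell (17.9%, against 33.0%) and 12 were not called, with a median log2 difference of 0.09 beside -0.02 for all tested genes. Tjp3, a scaffold that ties claudins to actin, rose by 0.58, and the immunoglobulin-like F11r and Cxadr by 0.99 each. Marveld3, a membrane protein of the occludin family, rose by 2.01. Tjp1 missed the fold threshold at 0.22 (limma, adjusted p = 0.0491). Ocln itself fell by 0.51 on the log2 scale but stood at 0.21, not called, under total-read scaling. Among the 5 that fell were the kinase gene Prkcz at -1.24, the scaffold Mpdz at -1.15 and Pard3 at -0.88, of which Pard3 was not called under total-read scaling (-0.16). Under that scaling 23 partners rose (82.1%, against 66.7% of all tested genes) and 2 fell (7.14%, against 11.1%), and under upper-quartile scaling 9 rose and 8 fell (against 30.4% and 37.8% of all tested genes).

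Adherens junction partners gave 7 higher (53.8%, against 33.5% of all tested genes), 4 lower (30.8%, against 33.0%) and 2 not called of the 13 tested of 16 listed, with a median log2 difference of 0.44. Under total-read scaling 10 were higher (76.9%, against 66.7%) and 1 lower. Among the catenins listed, Ctnna1 rose by 0.54, Ctnnb1 by 0.44, Ctnnd1 by 0.47 and Jup by 0.85, as Cdh1 did. Vcl, the actin-binding vinculin, rose by 1.39. Nectins, which start adherens junctions, split, with Nectin4, which passed the filter through Vps15LKO livers alone, at 2.10 and Nectin3 at -1.24. Of 7 tested desmosome genes of 11 listed, 3 rose (42.9%, against 33.5% of all tested genes) and 1 fell (14.3%, against 33.0%), with a median of 0.34, and 6 rose (85.7%, against 66.7%) and 0 fell under total-read scaling. Of the 3 that rose, Pkp1 and Pkp3 passed the filter through Vps15LKO livers alone, so they had to differ, and 1 of the 5 with 20 or more in every liver rose, against 27.9% of all genes that pass that filter. Pkp1, a plaque protein of stratified epithelia, rose by 4.90 from a mean of 2.63 ± 2.70 to 83.1 ± 5.94 normalized counts (SD, n = 3), and Dsp, the plakin of the plaque, by 0.74. Perp fell by 0.69 on the log2 scale, though under total-read scaling it stood at 0.03 and was not called.

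Only 1 of the 7 other channel genes listed was tested, Panx1, which forms channels that release ATP. Its values were 10.6, 16.2 and 20.2 normalized counts in WT and 477, 357 and 430.0 in Vps15LKO livers, a log2 difference of 4.70 (SE 0.24, limma, adjusted p = 1.54e-06). Panx1 rose in the livers in which Gjb1 and Gjb2 fell, and a link between these changes was not tested. Of the cadherin-related genes with names outside the rule, 13 of 22 were tested, and 7 rose (53.8%, against 33.5% of all tested genes), 2 fell (15.4%, against 33.0%) and 4 were not called, with a median of 0.84, and 6 rose and 3 fell under quantile normalization (against 31.2% and 37.0%). With a minimum of 20 in every liver 5 rose and 2 fell, against 27.9% and 36.2% of all genes that pass that filter. Fat1, a giant cadherin, rose by 1.21, while the protocadherin Pcdh1 and the calsyntenin Clstn3 stood at -1.35 and -1.50.

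**Figure D4:**
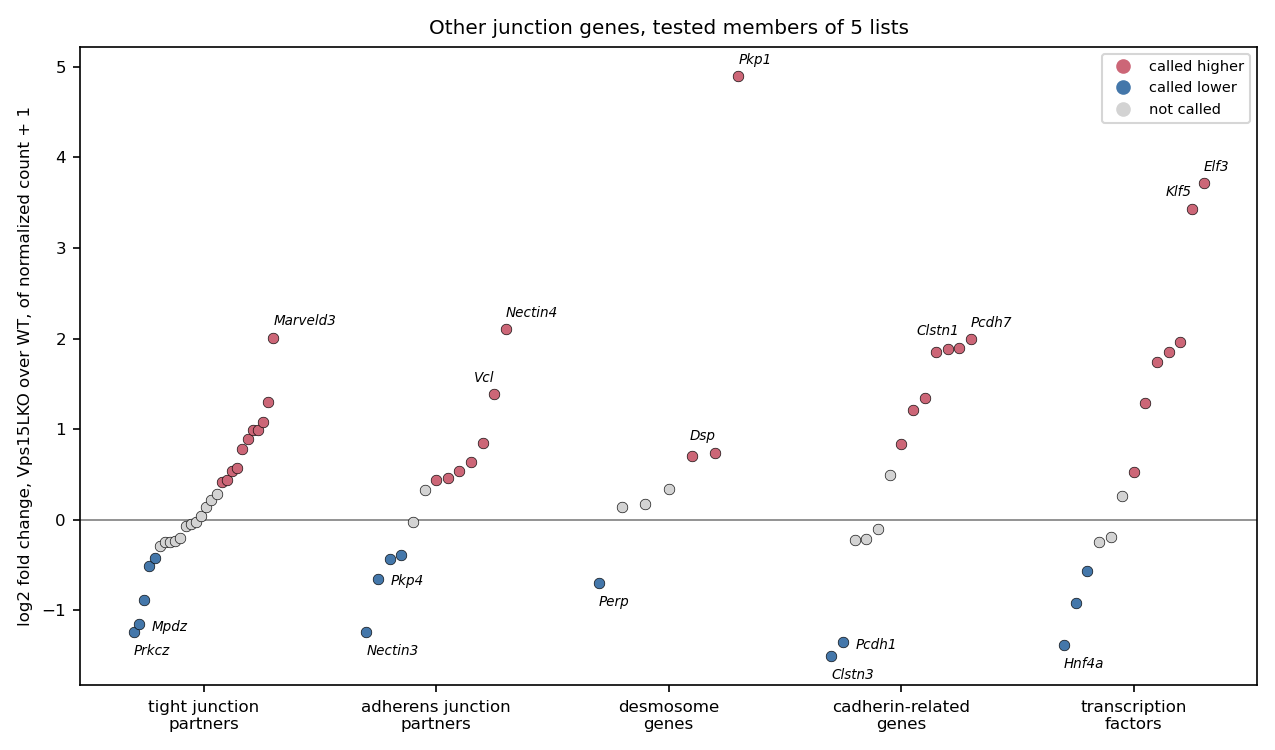
Log2 differences, Vps15LKO minus WT, of each tested gene in the lists of junction partners and transcription factors, for 5 lists, with 1 point per gene coloured by its call. Pkp1 at 4.90 and Elf3 at 3.71 stand highest and Clstn3 at -1.50 lowest, and tight junction partners spread on both sides of 0.

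Transcription factors known to act on junction genes gave 7 higher (53.8%, against 33.5% of all tested genes), 3 lower (23.1%, against 33.0%) and 3 not called of the 13 tested of 20 listed, with a median log2 difference of 0.53. Klf5 passed the filter through Vps15LKO livers alone, and with a minimum of 20 in every liver 4 of 10 rose and 3 fell, against 27.9% and 36.2%. Under total-read scaling 10 were higher (76.9%, against 66.7%) and 1 lower. Snai1 and Zeb2, known as repressors of Cdh1, rose by 1.74 and 1.29. Whole tissue does not show which cells these reads came from, and their part in the level of Cdh1 was not tested. Elf3 and Klf5, factors of lining epithelia, rose by 3.71 and 3.43, from means of 14 ± 7.86 and 6.08 ± 2.98 to 179.9 ± 12.4 and 72.7 ± 24.5 normalized counts (SD, n = 3). Hnf4a, a master factor of hepatocytes, had 18054 ± 1524 in WT and 6964 ± 1059.6 in Vps15LKO livers, a log2 difference of -1.38 (SE 0.15, limma, adjusted p = 7.43e-05), and -0.66 under total-read scaling. The lists hold factors of both directions, and none was tested for binding near the members.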

How the data were processed

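Total liver RNA was polyA-selected and sequenced as DNA nanoballs, with the second strand removed by UDG, and the reads were filtered with SOAPnuke. Per the labels and the study's methods, the authors mapped to GRCm38 with HISAT2, counted with featureCounts (Subread) and normalized with DESeq2, and the processing notes also list edgeR. Neither versions nor how featureCounts treated strand and multi-mapping reads is given in the sources used here; reads of overlapping genes on opposite strands may not be separated. The deposited values are a signal, each count scaled by its library's size factor. Dividing by the smallest step of a library gave whole reads for 100% of its values (tolerance 0.01), so the reads were recovered.

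Gene symbols, positions and exon lengths came from GENCODE M21 (GRCm38), which matched 55227 of the 56305 genes, and promoter windows from the RefSeq table of GRCm38.p6, which held 48 of the 71 members. The members and gene lists were chosen with earlier results of these data known. log2(normalized count + 1) was compared with limma 3.58.1 (lmFit, eBayes with trend, R 4.3.3) over the 15430 genes that reached 20 in 3 or more of the 6 livers, with Benjamini-Hochberg adjustment over all of them. The fit was first tested on simulated data with few changed genes and with rises and falls in balance. That does not test the choice of scaling. Genes named are Pik3r4, the members (those tested, and others that were called or by range), genes of the fixed partner lists and the cell type markers. Wbscr25, Gpr89, Gjc3, Cldn15 and others below the filter were named after their values were seen. Some genes are not reported here by name, though counts and sums over lists include them.

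Alternatives on the recovered reads were limma voom, DESeq2 1.42.0 and edgeR 4.0.16, and on the deposited values other scalings, filters, pseudocounts and thresholds, and leaving out each liver. Replicate numbers name different mice, and no source ties a number to a litter. With 3 livers of each genotype, p-values measure the spread between these livers. Each ratio within a liver was compared with an exact permutation test in scipy 1.17.1, and counting intervals cover counting error only. Plots were drawn with matplotlib 3.10.9.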

Additional observations from a re-analysis of the deposited data

How the results depend on the processing

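Of 447 values of single members under the alternatives, 399 kept direction and side of the threshold, 27 lost the call, 5 gained it and 16 turned direction. Called members numbered 13 to 15 higher and 4 or 5 lower with single livers left out, 15 and 5 with edgeR or voom, and 15 and 4 with DESeq2. Over all tested genes, 4648 to 5152 were higher and 4450 to 5070 lower with single livers left out. In the main comparison these were 5163 and 5099. A minimum of 20 in all livers, by which genes low in WT drop out, left 6 members higher (1 claudin, 2 cadherins, 3 connexins), 1 desmosome gene, 0 other channel genes and 4 transcription factors, while no filter gave 11 transcription factors higher. Of all genes that pass that minimum, 27.9% were higher, and no filter gave 6853 genes higher in place of 5163. Total-read scaling left 3 members lower (1 claudin, 0 cadherins), 8 claudins higher, and 10299 genes higher and 1712 lower in all, and it gave 23 tight junction partners higher and 2 lower, 1 adherens partner lower, 6 desmosome genes higher and 0 lower, 11 cadherin-related genes higher and 1 transcription factor lower. A fold of 2 left 12 members higher and 3 lower (1 claudin, 0 cadherins), where 3228 of all 15430 tested genes were higher and 1957 lower. It left 3 and 2 tight junction partners, 2 and 1 adherens partners, 1 and 0 desmosome genes, and 1 transcription factor lower. Upper-quartile scaling gave 2 cadherins and 8 tight junction partners lower, where 37.8% of all tested genes were lower. Quantile normalization gave 5 desmosome genes higher, where 31.2% of all tested genes were higher. TMM scaling, DESeq2 and the replicate block each gave 1 claudin lower. Without single livers, claudins lower ranged from 1 to 2, cadherins lower from 1 to 2 and adherens partners lower from 2 to 4. Total-read scaling turned Cldn3 (0.70), Cldn2 (0.72), Cldn14 (0.36), Cdh2 (0.10), Cdh13 (0.34), Pik3r4 (0.19), Ocln (0.21) and Perp (0.033). Cldn3 and Cldn2 also turned with TMM (0.016 and 0.039) and quantile normalization (0.50 and 0.47), and with single livers left out they ranged from -0.0819 to 0.0159 (0.0093 without WT replicate 1) and from -0.0819 to 0.0469, with Cldn1 from -0.0015 to 0.33. The log2 ratio difference of Cldn4 to Cldn1 was 9.29 at a pseudocount of 0.1 and 5.50 at 10, and that of Cldn7 to Cldn1 was 2.87 at 10. The cause of these changes was not tested beyond the construction of each alternative. Same-numbered livers did not deviate together (correlations -0.01, -0.01 and 0.05), where differently numbered livers gave -0.06 to 0.09. These 3 pairs are too few to exclude a litter or batch shared by number. Among members the replicate block changed the call of Cldn14 only (15 higher, 4 lower), and it left 3 adherens partners lower in place of 4. Genes with 0 reads in a genotype allow no fold but a bound, and those with 1 to 3 reads a ratio with a wide counting interval.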
